A study of Mus musculus with 11 samples.

Results

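The genes described here are 10 mouse genes whose mRNAs belong to the 5′TOP class but do not encode ribosomal proteins. They are Eef1a1, Eef1b2, Eef1d, Eef1g, Eef2, Pabpc1, Rack1, Naca, Tpt1 and Npm1, chosen by name from the 54838 Ensembl genes counted in each library, and all 10 were among the 16073 genes that passed the filter on low counts. The cells were E14 mouse embryonic stem cells (ESCs) kept on gelatin with LIF. They were sampled 36 h after transfection with a control scramble siRNA (3 libraries), with CMTR1 siRNA 1 (4 libraries) or with CMTR1 siRNA 2 (4 libraries). Total RNA was depleted of rRNA and sequenced from both ends in strand-specific libraries. Group names below are those of the labels. The study's methods call the sequencing replicates biological but do not tie them to single libraries, and the labels do not name the cultures, so the p-values measure the spread between these libraries.

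CMTR1 is the methyltransferase that adds a methyl group to the ribose of the first transcribed nucleotide, next to the cap. A TOP mRNA begins at that nucleotide with a C and continues with an unbroken run of pyrimidines. The run is read by LARP1 and by the translation machinery downstream of mTORC1, so that the mRNAs of ribosomal proteins, elongation factors and poly(A)-binding protein are translated together when growth conditions allow. The comparison asks what the CMTR1 siRNAs did to the amount of these mRNAs. Their translation was not measured here.

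In the GENCODE M21 annotation of GRCm38, 4 of the 22 basic protein-coding transcripts of these genes (18.2%) began with a C and at least 4 further pyrimidines, against 2.27% of all 45029 such transcripts. The 4 belonged to 4 of the 10 genes, and 4.21% of all protein-coding genes had a transcript of this kind. These first 24 bases are shown because they hold the class-defining feature, with the pyrimidines from the first base in capitals. They lie at chr11:48800360-48800383 (plus strand), chr15:36608950-36608973 (minus), chr1:63177130-63177153 (plus) and chr15:75909283-75909306 (minus), in the first exons.
Rack1-201: CTTTTTCTCCacagggtcgtggtg
Pabpc1-201: CCCCTTCTCCCCggcggttagtgc
Eef1b2-209: CTTTTTTTCCCTCagcgctggccg
Eef1d-217: CTCTCCTTTgcagtcctgagctcg

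The run was 10 bases long in Rack1, 12 in Pabpc1, 13 in Eef1b2 and 9 in Eef1d. For Eef1b2 and Eef1d the transcript that began so was not the principal one of the gene. The other 6 genes had no annotated transcript with such a start. Their longest C-led pyrimidine run that began within the first 100 bases of the principal transcript lay downstream of the annotated first base. The runs of Eef1g (22 bases, starting at base 87), Tpt1 (7 bases, at base 96) and Npm1 (5 bases, at base 90) lay furthest downstream and are not shown. Shown with the run in capitals are those of Eef1a1 (starting at base 54; chr9:78481652-78481675, minus strand), Eef2 (base 16; chr10:81176642-81176665, plus strand) and Naca (base 31; chr10:128035601-128035624, plus strand).
Eef1a1-201: cgttCTTTTTCgcaacgggtttgc
Eef2-201: cggtCTCTTCCgccgcagccgccg
Naca-201: ccggCTTCCTTCTgcaacaggcgt

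C-led runs are common near annotated starts. A C-led run of at least 8 pyrimidines began in the first 100 bases of the principal transcript of 5 of the 10, and in those of 26.9% of all basic protein-coding transcripts. The units differ, since the 10 genes were counted by their principal transcript only. A run of at least 5 was present in all 10 and in 76.6%. The RefSeq promoter table (GRCm38) held 6 of the 10 genes, and there 1, Rack1, began with a C and at least 4 pyrimidines, against 2.51% of 32851 starts. These matches describe annotated letters and do not locate the start used in ESCs.

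Depth and sample checks were as follows. Each library had 6738478 to 8382318 reads in genes, and a single gene, Gm26917, took 4.86 to 6.34% of them. Values are counts scaled to the reads in genes of the library (CPM), a relative measure, and in bulk RNA fewer cells of a type and less RNA per cell cannot be told apart. Cmtr1, the targeted gene, was at 21.3, 21.7 and 17.9 CPM in control (mean 20.3 ± 2.10, SD, n = 3). It was at 21.1, 21.3, 16.2 and 18.0 CPM in siRNA 1 replicates 1 to 4 (19.2 ± 2.45, n = 4), and at 17.1 ± 1.68 CPM over the siRNA 2 libraries (n = 4). Replicates 1 and 2 of siRNA 1 were thus above the control mean. Its libraries overlapped between the groups, and it did not pass the test with siRNA 1 (edgeR adjusted p = 0.743) or siRNA 2 (edgeR adjusted p = 0.144). All 12 ESC markers were above 1 CPM on average. Their summed level was 2663 to 2828 CPM in control, 2344 to 2547 with siRNA 1 and 2412 to 2517 with siRNA 2, so it was lower in both siRNA groups, as were the genes described here. A list of 6 fibroblast markers, of which 4 had a mean above 1 CPM and Postn was at 0 in 10 of 11 libraries, summed to 23.3 to 27.8 CPM in control, 24.7 to 28.5 with siRNA 1 and 34.1 to 38.9 with siRNA 2. Neural markers (5 listed, 3 with a mean above 1 CPM) summed to 88.1 to 93.9 CPM in control. They summed to 94.2 to 106.7 CPM with siRNA 1, above control without overlap, and to 77.4 to 99.85 CPM with siRNA 2. Markers of primitive endoderm (5 listed), mesoderm (4) and trophoblast (4) overlapped between control and each siRNA group in their summed levels, and Elf5 of the trophoblast list was at 0 in 9 of 11 libraries. The part of these shifts in the results below was not tested.

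In control ESCs the 10 genes together took 1.30 ± 0.024% of the reads in genes (SD, n = 3). Eef1a1 alone supplied 26.4% of that sum, Eef2 18.9%, Pabpc1 14.9% and Npm1 12.4%. By CPM, Eef1a1 ranked 8th, Eef2 11th, Pabpc1 15th and Npm1 21st of the 16073 genes tested, and the lowest of the 10, Eef1d, ranked 578th. Read counts were therefore high, from 20974 to 28361 reads per library for Eef1a1 and from 1884 to 2398 for Eef1d. For Eef1b2 they ran from 2653 to 4058.

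Per kilobase of the principal transcript, which allows levels of different genes to be compared, Eef1a1 was at 1921 ± 25.6 CPM/kb in control (SD, n = 3). It was followed by Npm1 at 989 ± 45.6, Eef2 at 799 ± 40.2, Rack1 at 736 ± 12.3 and Pabpc1 at 689 ± 6.75 CPM/kb. Tpt1 (557 ± 15.1), Naca (467 ± 12.2), Eef1g (351 ± 10.3), Eef1b2 (251 ± 6.69) and Eef1d (129.7 ± 1.57) came after. No 2 neighbours in this order overlapped in control, although Eef2, from 753 to 828, came close to Rack1, from 723 to 746 CPM/kb. The order rests on the transcript chosen. By the length of all annotated exons, Eef1a1 remained first and Eef1d last, but Eef2 came before Npm1, and Rack1 came 7th.

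**Figure D1:**
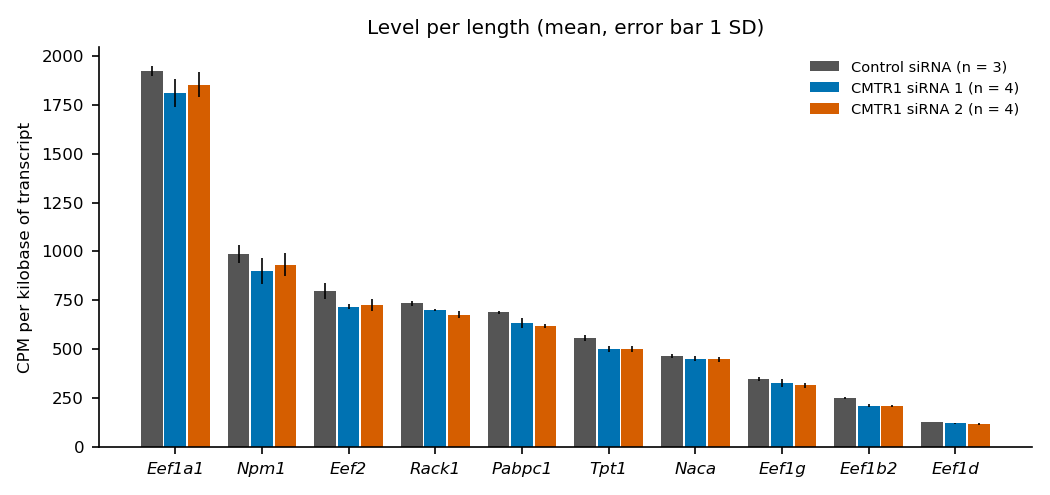
Level of the 10 genes per kilobase of principal transcript (vertical axis, CPM per kilobase), as group means with 1 SD as the error bar, for 3 control, 4 CMTR1 siRNA 1 and 4 CMTR1 siRNA 2 libraries. Eef1a1 stood at 1921 CPM/kb in control and Eef1d at 129.7, and the order of the genes spans a far wider range than the shift between groups.

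All 10 genes had a lower fitted level with each CMTR1 siRNA than in control, by small amounts. With siRNA 1, 3 of the 10 fell at a false discovery rate (FDR) of 0.05 over all genes tested: Eef1b2, Eef2 and Tpt1. Over all genes 1.97% were called lower. With siRNA 2, 6 of the 10 fell: the same 3 and Eef1g, Pabpc1 and Rack1, where 3.55% of all genes were called lower. None rose, where 2.71% (siRNA 1) and 6.17% (siRNA 2) of all genes were called higher. The median log2 fold change of the 10 genes was −0.10 with siRNA 1, against 0.02 over all genes, of which 43.2% lay below 0. With siRNA 2 it was −0.13, against 0.03 over all genes, of which 42.9% lay below 0. Both comparisons use the same 3 control libraries, so they are not independent of each other. At an unadjusted p under 0.05, 7 of the 10 passed with each siRNA. The counts rest partly on control replicates 2 and 3: without replicate 2, Eef1b2 alone was called with either siRNA, and without replicate 3 the counts were 1 and 3. Leaving out siRNA 1 replicate 2 gave 1 called gene with siRNA 1, and leaving out its replicate 3 gave 5.

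Elongation factor 1 carries aminoacyl-tRNA to the ribosome. Its GTP-binding subunit is Eef1a1, and Eef1b2, Eef1d and Eef1g make up the complex that reloads it with GTP. The exchange subunit Eef1b2 (ENSMUSG00000025967, chromosome 1, 63176825 to 63180486, plus strand) was the gene that fell most. Its levels were 487, 501 and 475 CPM in control, 394, 411, 425 and 424 CPM in the siRNA 1 libraries and 410.1, 407, 401 and 419 CPM in those of siRNA 2. The siRNA libraries all lay below the control libraries, with a gap wider than the spread of any group. Against control, siRNA 1 gave a log2 fold change of −0.24 (95% interval −0.32 to −0.15, SE 0.042, edgeR adjusted p = 0.000266), a fall to 0.849 of the control level. With siRNA 2 it was −0.25 (95% interval −0.34 to −0.17, SE 0.042, edgeR adjusted p = 5.55e-05), or 0.840 of control. Eef1b2 was called with both siRNAs whichever of the 11 libraries was left out.

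Eef1g, the structural subunit of the same complex, was at 639, 676 and 648 CPM in control, 574, 588, 649 and 645 in the siRNA 1 libraries and 603, 591, 561 and 609.7 in those of siRNA 2. Replicates 3 and 4 of siRNA 1 lay within the control range, and replicates 1 and 2 below it, while all siRNA 2 libraries lay below control. Its log2 fold change with siRNA 1 was −0.09 (SE 0.045, edgeR adjusted p = 0.296), and with siRNA 2 −0.15 (SE 0.045, edgeR adjusted p = 0.0311). The siRNA 2 call was lost without control replicate 2 (edgeR adjusted p = 0.171), control replicate 3 (0.0791) or siRNA 2 replicate 3 (0.0771). Eef1d, the second exchange subunit, was at 296 to 302 CPM in control, 279.6 to 286 with siRNA 1 and 263 to 283 with siRNA 2. Its siRNA libraries did not overlap control with either siRNA, and its log2 fold change was −0.08 with siRNA 1 (edgeR adjusted p = 0.342) and −0.13 with siRNA 2 (edgeR adjusted p = 0.0508). Without siRNA 1 replicate 1, which enters the shared spread, or siRNA 2 replicate 2, the latter passed (edgeR adjusted p = 0.0461 and 0.0427). The most abundant of the genes, Eef1a1, was at 3411, 3498 and 3429 CPM in control, 3113 to 3379 with siRNA 1 and 3213 to 3477 with siRNA 2. The log2 fold change of Eef1a1 was −0.09 (SE 0.040, edgeR adjusted p = 0.245) and −0.05 (SE 0.040, edgeR adjusted p = 0.443). The 4 parts of the factor thus had fitted differences from −0.05 to −0.25, and whether they differed from one another was not tested.

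Eef2 (ENSMUSG00000034994, chromosome 10, 81176631 to 81182498, plus strand), the GTPase that moves the ribosome along the mRNA, was at 2327, 2525 and 2556 CPM in control. It was at 2191, 2178, 2265 and 2239 CPM with siRNA 1, all below control, and at 2262, 2381, 2197 and 2160.2 CPM with siRNA 2, where replicate 2 lay above the lowest control library. Control replicate 1 stood apart from the other two control libraries. Eef2 fell with both, by a log2 fold change of −0.15 with siRNA 1 (SE 0.041, edgeR adjusted p = 0.0191) and −0.13 with siRNA 2 (SE 0.041, edgeR adjusted p = 0.0312). Both calls were lost without control replicate 2 (edgeR adjusted p = 0.137 and 0.152) or 3 (0.155 and 0.200). The siRNA 1 call was also lost without its replicate 2 (edgeR adjusted p = 0.0872), and the siRNA 2 call without its replicate 1 (0.0631) or 4 (0.0950).

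**Figure D2:**
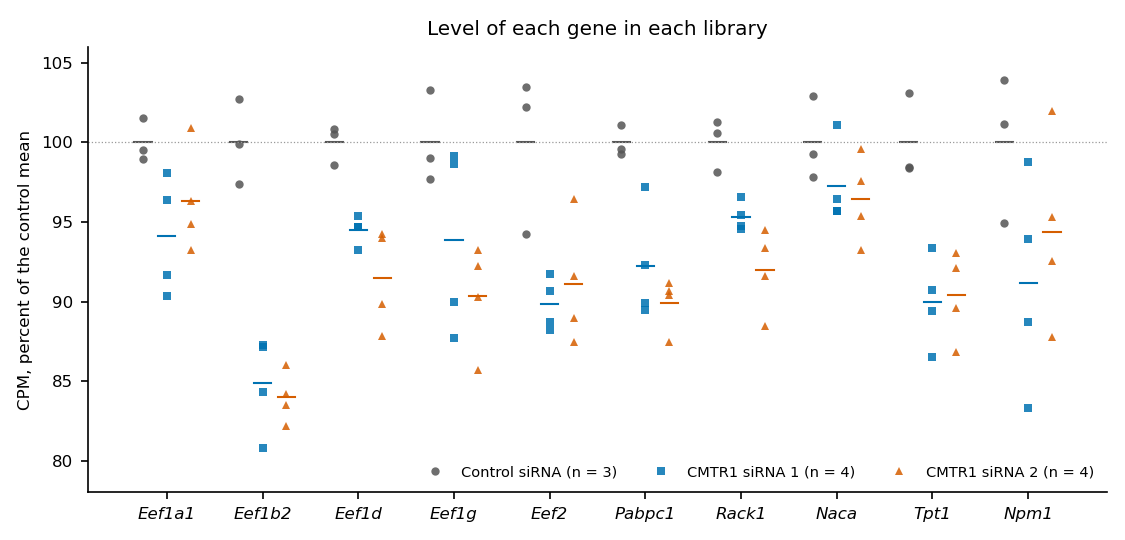
Level of each gene in each library as a percentage of its mean over the 3 control libraries (vertical axis, CPM relative to control). Each point is 1 library and each bar is the group mean. For Eef1b2 every siRNA library lay below every control library, while for Naca, Npm1, Eef2 and Eef1a1 at least 1 siRNA library lay among the controls with siRNA 2.

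Pabpc1, the cytoplasmic protein that coats the poly(A) tail and joins it to the initiation complex at the cap, was at 1934, 1963 and 1928 CPM in control. With siRNA 1 it was at 1738, 1746, 1888 and 1793 CPM, and with siRNA 2 at 1761, 1755, 1698 and 1770.0 CPM. The siRNA libraries lay below control without overlap in both comparisons, and the fitted difference was −0.12 on the log2 scale with siRNA 1 (SE 0.040, edgeR adjusted p = 0.0815) and −0.15 with siRNA 2 (SE 0.040, edgeR adjusted p = 0.00850), of which the second passed the test. Without control replicate 2 it missed the threshold (edgeR adjusted p = 0.0539), and without siRNA 1 replicate 3 the siRNA 1 difference passed (0.0299).

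Rack1, a scaffold protein of the small ribosomal subunit, was at 1046, 1072 and 1079.5 CPM in control. It was at 1007, 1017, 1029 and 1009.8 CPM with siRNA 1 and 995, 1007, 943 and 976 CPM with siRNA 2, again without overlap. Rack1 had a log2 fold change of −0.07 with siRNA 1 (SE 0.039, edgeR adjusted p = 0.383) and −0.12 with siRNA 2 (SE 0.039, edgeR adjusted p = 0.0429). The siRNA 2 call held in 3 of the 11 fits that left out a library, and was lost among others without any of the 3 control replicates (edgeR adjusted p = 0.0616, 0.137 and 0.166). Naca, a subunit of the nascent polypeptide-associated complex that meets new chains at the ribosome exit, had the smallest differences. It was at 404 to 425 CPM in control, 395 to 417 with siRNA 1 and 385 to 411 with siRNA 2, and its groups overlapped in both comparisons. Its log2 fold change was −0.04 (95% interval −0.13 to 0.05, SE 0.043, edgeR adjusted p = 0.699) and −0.05 (−0.14 to 0.03, SE 0.043, edgeR adjusted p = 0.490).

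The other two genes encode abundant proteins with roles in growth outside the elongation cycle. Tpt1 (ENSMUSG00000060126, chromosome 14, 75845093 to 75848525, plus strand), the translationally controlled tumour protein, was at 641, 671 and 641 CPM in control, 563, 582, 608 and 591 in the siRNA 1 libraries and 606, 583, 565 and 599.7 in those of siRNA 2. No siRNA library reached the lowest control library. It fell with both siRNAs, at a log2 fold change of −0.15 with siRNA 1 (SE 0.042, edgeR adjusted p = 0.0230) and −0.15 with siRNA 2 (SE 0.042, edgeR adjusted p = 0.0192). Without control replicate 2 both calls were lost (edgeR adjusted p = 0.181 and 0.131), and the siRNA 1 call was also lost without control replicate 3 (0.0541) or siRNA 1 replicate 1 (0.0816) or 2 (0.0817). Npm1, a nucleolar chaperone of ribosome assembly, varied widely between libraries of a group, at 1532 to 1678 CPM in control, 1345 to 1595 with siRNA 1 and 1417 to 1647 with siRNA 2. Its log2 fold change was −0.13 (SE 0.048, edgeR adjusted p = 0.109) and −0.08 (SE 0.048, edgeR adjusted p = 0.303). Without siRNA 1 replicate 3 the former passed (edgeR adjusted p = 0.0268).

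Counted by library rather than by the fit, 7 of the 10 genes had every siRNA 1 library below every control library (all but Eef1g, Npm1 and Naca), as did 6.23% of all genes tested. With siRNA 2 this held for 6 of the 10 (all but Eef1a1, Eef2, Npm1 and Naca), as it did for 6.99% of all genes. When both siRNA groups were averaged and set against control, 4 genes fell (Eef1b2, Eef2, Tpt1 and Pabpc1), where 2.72% of all genes were called lower, and the median log2 fold change was −0.11. With TMM factors or DESeq2 the same comparison called 7, and without control replicate 2 it called 1 and without control replicate 3 it called 2.

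**Figure D3:**
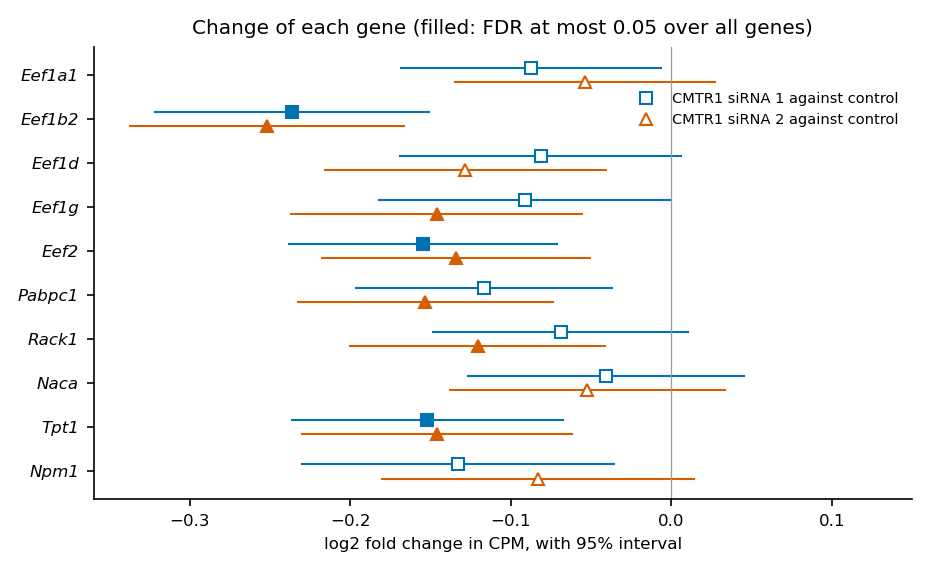
Fitted log2 fold change of each gene against control (horizontal axis) with its 95% interval, for CMTR1 siRNA 1 (squares) and CMTR1 siRNA 2 (triangles), with filled symbols where the FDR was at most 0.05. All estimates lie below 0, from −0.04 for Naca with siRNA 1 to −0.25 for Eef1b2 with siRNA 2.

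Between the siRNAs themselves no difference was found for these genes. The log2 differences of siRNA 2 against siRNA 1 ran from −0.06 (Eef1g) to 0.05 (Npm1), with none of the 10 called and 0 at an unadjusted p under 0.05 (edgeR adjusted p from 0.454 to 0.954), where 7.44% of all genes were called. DESeq2 and edgeR's exact test also called 0. The 95% intervals lay within −0.14 and 0.14, so a larger difference than that between the siRNAs was outside the interval of every gene.

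The genes were next set beside genes of equal level, since highly expressed genes have small counting error. Between the levels of Eef1d and Eef1a1 (8.15 to 11.7 on the scale of mean log2 CPM) lay 560 genes tested other than the 10, 50 of them ribosomal protein genes. Their median log2 fold change was −0.02 with siRNA 1, with 62.7% below 0 and 4.64% called lower, and −0.004 with siRNA 2, with 51.6% below 0 and 8.21% called lower. The 3 and 6 genes called of the 10 stand beside these shares. For single genes the comparison was with genes other than the 10 within 0.5 of its mean log2 CPM, or within 1.0 for Eef1a1 and Eef2. Among 371 genes at the level of Eef1b2, 2 had a lower log2 fold change than it did with siRNA 1 and 4 with siRNA 2. None of 36 genes at the level of Eef2, 35 at that of Npm1 and 22 at that of Pabpc1 had a lower value with siRNA 1, and with siRNA 2 the shares were 11.1%, 25.7% and 9.09%. For Naca, 38.0% and 29.4% of 408 genes were lower, and for Eef1d 16.3% and 9.32% of 644. The shares were 6.70% and 8.25% of 194 genes for Tpt1, 13.9% and 6.33% of 79 for Rack1, 16.8% and 7.85% of 191 for Eef1g, and 11.1% and 44.4% of 9 for Eef1a1. Eef1b2 was therefore near the lower end of its level with both siRNAs, and Naca was well inside it.

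**Figure D4:**
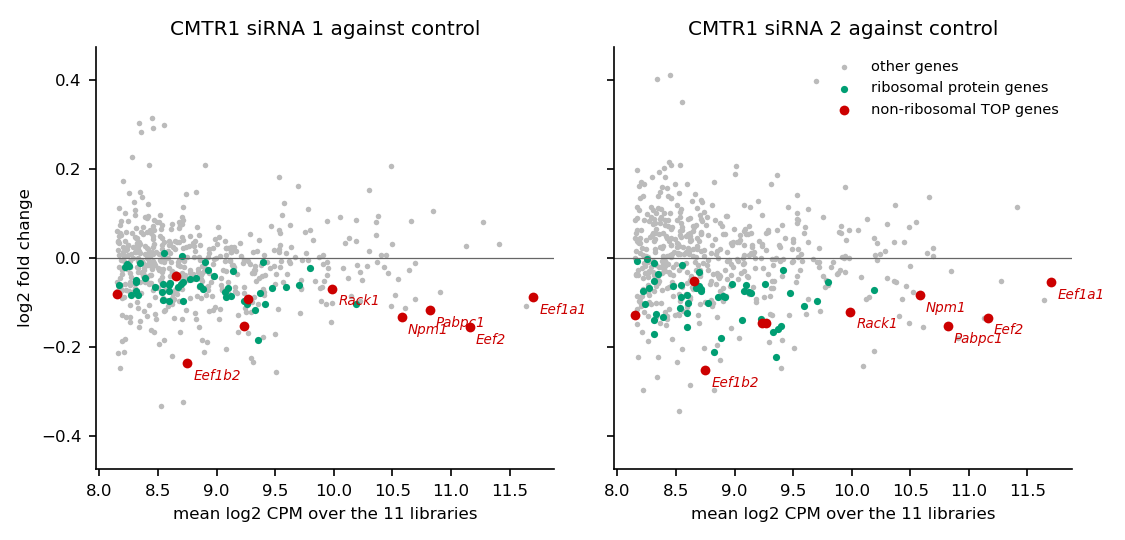
Log2 fold change with CMTR1 siRNA 1 (left) and CMTR1 siRNA 2 (right) against mean log2 CPM over the 11 libraries, for the genes from the level of Eef1d to that of Eef1a1: 10 non-ribosomal TOP genes (red), 50 ribosomal protein genes (green) and 510 others (grey). All 10 red points lie below 0 in both panels, with Eef1b2 lowest of them, at −0.24 and −0.25.

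As a share of all reads in genes, the 10 genes went from 1.30 ± 0.024% in control (1.28 to 1.33%, n = 3) to 1.20 ± 0.042% with siRNA 1 (1.16 to 1.25%, n = 4) and 1.21 ± 0.029% with siRNA 2 (1.17 to 1.23%, n = 4). The siRNA libraries did not reach the lowest control library. Ribosomal protein genes took 3.07 ± 0.043%, 2.93 ± 0.050% and 2.87 ± 0.071%. Replicates 1 and 2 of siRNA 1 held the lowest shares of that group for the 10 genes (1.16 and 1.18%), and replicate 3 the highest (1.25%). Replicates 1 and 2 also had the highest Cmtr1 levels of the group (21.1 and 21.3 CPM) and replicate 3 the lowest (16.2 CPM). The other groups did not share this order. In control, replicate 2 had both the highest Cmtr1 level (21.7 CPM) and the highest share (1.33%). With siRNA 2, replicate 1 had the lowest Cmtr1 level (15.6 CPM) and the highest share (1.23%). There replicate 3 had the lowest share (1.17%) at 16.4 CPM, and replicate 4 had 1.22% at the highest Cmtr1 level (19.5 CPM). Cmtr1 had only 110 to 176 reads per library, and a relation of the share to Cmtr1 was not tested.

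Other genes of the same pathway were described from lists. Of 81 cytosolic ribosomal protein genes tested out of 87, the main body of TOP mRNAs, 2 fell and none rose with siRNA 1, where 1.97% of all genes and 4.64% of genes at the level of the 10 were called lower. With siRNA 2, 21 fell and none rose, where the shares were 3.55% and 8.21%. The 2 genes called with siRNA 1 are thus near the share over all genes. Of the 81, 79 and 80 had values below 0, with medians of −0.07 and −0.09. The stalk protein gene Rplp0 fell with both (log2 fold change −0.18 and −0.22, edgeR adjusted p = 0.00386 and 0.000268). Rpl18, Rps29 and Rps27 fell with siRNA 2 (−0.21, −0.21 and −0.20, edgeR adjusted p = 0.000604, 0.00202 and 0.00259), and were at −0.04, −0.09 and −0.09 with siRNA 1. The median of the 10 non-ribosomal genes was lower in each comparison, and this difference between the lists was not tested.

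A further 12 non-ribosomal TOP genes, mostly initiation factors, had 2 lower and none higher with each siRNA and medians of −0.05 and −0.01. The same 2 genes fell each time, where 1.97% of all genes were called lower with siRNA 1 and 3.55% with siRNA 2. Eif4b, which stimulates the helicase of the initiation complex, had 697 ± 17.2 CPM in control (SD, n = 3), 596 ± 20.5 with siRNA 1 (n = 4) and 611 ± 18.3 with siRNA 2 (n = 4), log2 differences of −0.22 and −0.19 (edgeR adjusted p = 0.000444 and 0.00195). Nap1l1, a histone chaperone, had 750.3 ± 18.6, 663 ± 50.1 and 632 ± 31.9 CPM (−0.18 and −0.25, edgeR adjusted p = 0.0184 and 0.000357). The subunits Eif3e, Eif3f, Eif3h, Eif3k and Eif3l of initiation factor 3, on the same list, did not pass, with values from −0.11 to 0.10.

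Among 19 regulators of TOP mRNAs, 1 fell and 1 rose with siRNA 1 and 2 fell with siRNA 2, with medians of −0.02 in both. Over all genes 1.97% were called lower and 2.71% higher with siRNA 1, and 3.55% and 6.17% with siRNA 2. Akt1s1, which encodes the mTORC1 inhibitor PRAS40, fell with both (−0.24 and −0.37, edgeR adjusted p = 0.0277 and 0.000326). Tsc2, an upstream inhibitor of mTORC1, rose with siRNA 1 (0.17, edgeR adjusted p = 0.0225) and was at 0.06 with siRNA 2. Larp4, an RNA-binding protein that protects poly(A) tails, fell with siRNA 2 (−0.14, edgeR adjusted p = 0.0453) and was at −0.10 with siRNA 1. Larp1 itself was at −0.11 (edgeR adjusted p = 0.102) and −0.05 (edgeR adjusted p = 0.464), and Mtor at 0.03 and −0.06. Larp1 and Mtor are outside the rule for named genes and are given for their roles.

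Of 29 paralogs and protein partners, 28 were tested, and 1 fell and 1 rose with each siRNA. These counts are near the shares over all genes, 1.97% lower and 2.71% higher with siRNA 1, and 3.55% and 6.17% with siRNA 2. With siRNA 1, Pabpc4, a second cytoplasmic poly(A)-binding protein, fell (−0.19, edgeR adjusted p = 0.00717) and Dph1, of the pathway that makes the diphthamide of Eef2, rose (0.38, edgeR adjusted p = 0.0231). Pabpc4 and Dph1 were at −0.10 and 0.27 with siRNA 2, not called. With siRNA 2, Ncl, the nucleolar protein nucleolin, fell (−0.18, edgeR adjusted p = 0.00457) and Eef1e1, of the aminoacyl-tRNA synthetase complex, rose (0.18, edgeR adjusted p = 0.0459). Ncl and Eef1e1 were at −0.08 and 0.12 with siRNA 1, not called. No gene of this list was called between the siRNAs. The medians of this list were 0.004 and −0.03.

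The genes whose log2 CPM over the 11 libraries was most like the mean of the 10 were Cdv3 (Pearson r = 0.967), Ankrd33b, Eif4b, Gmnn, Zfp652, Hspe1, Hsp90ab1, Rpl11, Banf1 and Nap1l1 (r = 0.928), among 11856 candidates. The libraries share their group shifts in this measure. After group means were subtracted the list was led by Gnai3 (r = 0.992) and Rpl4 (0.984), followed by Etf1, Hspa8, Cct3, Sde2, Cct2, Hsp90aa1, Set and Ubqln1 (0.964). Ribosomal protein genes, 0.666% of the candidates, took 18 of the first 100 places in the first measure and 4 in the second. Among the 10 genes, the correlation of each with the mean of the other 9 ran from 0.547 (Naca) to 0.973 (Tpt1), and after subtraction of group means from 0.206 (Naca) to 0.970 (Eef1g). Naca was thus the gene least like the rest in both measures. These values are descriptions over libraries that also share depth and composition.

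Processed pseudogenes limit how uniquely some of these mRNAs can be counted. Of the 75-nt words in its exons, the length of a read, Eef1g shared 38.0% with other genes, Eef1a1 26.6%, Npm1 18.1% and Tpt1 17.5%, while the others shared from 0.704% (Rack1) to 7.0% (Naca). Few reads were counted in the copies. Reads that aligned to several places, 787556 to 974693 per library in the 10 with summary lines, were counted in no gene. Low counts in the copies therefore cannot show how many reads a gene lost. The most abundant copies were Gm13456 of Eef1a1 at 12.7 CPM and Tpt1-ps3 of Tpt1 at 10.6 CPM, and for no gene did pseudogenes sharing at least 1% of its words sum to more than 1.77% of its own level. Of the genes called with both siRNAs, Eef1b2 shared 5.07%, Eef2 2.30% and Tpt1 17.5%. Eef1d overlaps Naprt, at 19.1 CPM. Intronic snoRNAs lie within 4 of the genes. Of these Snora31 in Tpt1 was at 7.81 CPM in control, 7.19 with siRNA 1 and 5.66 with siRNA 2, and Snora41 in Eef1b2 was at 4.68, 5.02 and 4.77 CPM, from 573 and 408 reads in all 11 libraries.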

How the data were processed

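The authors deposited whole-number counts of reads per Ensembl gene, 1 file per library, made from rRNA-depleted, directional paired-end libraries. The methods name cutadapt for trimming, STAR for alignment to GRCm38 (mm10), Picard for the removal of PCR duplicates and featureCounts for counting. Summary lines in 10 of 11 files, set aside here, list 46.5 to 51.1% of reads as not assigned to a gene. Their layout is that of HTSeq-count rather than featureCounts, so the tool that made the counts is not settled. Removal of duplicates can lower the counts of very abundant genes such as Eef1a1.

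The 10 genes and all lists were chosen with earlier results of these data known. Genes with more than 1 CPM in at least 4 libraries entered a quasi-likelihood fit in edgeR 4.0.16 (R 4.3.3), by glmQLFit and glmQLFTest over all 11 libraries, with total counts as library size. SE is the log2 fold change divided by the root of F, intervals are 95%, and p-values were adjusted by Benjamini-Hochberg across the 16073 genes and called at an FDR of 0.05. Named are the 10 genes, Cmtr1, at most 4 called genes per list by FDR, the 10 genes most like the mean, and the most abundant gene sharing 75-nt words with each of the 10, here restricted to at least 1% of its words, after the values were seen. Of 54838 identifiers, 54809 matched GENCODE M21. The scan of the first 100 bases was also chosen after the data were seen. Alternatives were TMM factors, DESeq2 1.42.0, exactTest, other filters, a replicate block, length and GC trends removed, copies summed and each library left out. On simulated counts for siRNA 1 against control, over 16073 genes with 200 changed, 151 were called, of which 10 were unchanged, and 78 of 100 genes with a 2-fold change were recovered. For a change of 0.5 on the log2 scale, larger than that of any of the 10 genes, 63 of 100 were. The changed genes were drawn from all genes tested, most of which were less abundant than the 10. These shares therefore do not give the recovery for the 10 genes, whose SE was 0.039 to 0.048 against control. The precision is set by the 3 and 4 libraries per group. Python 3.11.15 made the tables and figures.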

Additional observations from a re-analysis of the deposited data

Results flagged for a closer look

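Of 24 sets of 4 libraries examined for a library far from the others, 1 had such a library, and chance gives about 1 in 20. Naca was at 417.4 CPM in CMTR1 siRNA 1 replicate 4, while the other 3 libraries of that group lay between 395 and 398 CPM, and this gap was 0.854 of the range of the group. Without that library the log2 fold change of Naca with siRNA 2 against siRNA 1 went from −0.01 to 0.0075.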

How the results depend on the processing

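The 10 genes lay below 0 with each siRNA in every setting run. Scaling by TMM factors, which ran from 0.986 to 1.012, called 4 and 7 of them with siRNA 1 and siRNA 2, DESeq2 4 and 7, exactTest 3 and 7, no filter 4 and 5, and more than 10 CPM 3 and 7. For the mean of both siRNAs TMM gave 7 and DESeq2 7, against 4. Requiring a fold of 1.5 as well left 0 in each of these 3 comparisons. TMM also moved the calls over all genes, from 316 lower of 751 to 400 of 746 with siRNA 1 and from 571 of 1562 to 734 of 1462 with siRNA 2. With 1 library left out, the calls ranged from 1 to 5 with siRNA 1, 1 to 7 with siRNA 2 and 1 to 6 for the mean. Without control replicate 2, 1 gene (Eef1b2) was called in each. Without control replicate 3 the counts were 1, 3 and 2. Without siRNA 1 replicate 2, siRNA 1 had 1, and without its replicate 3, 5. Eef1b2 was called in all 11 such fits for each siRNA, Eef2 in 8 and 7, Tpt1 in 7 and 10, Pabpc1 in 1 and 10, Eef1g in 0 and 8 and Rack1 in 0 and 3. For siRNA 2 against siRNA 1 the sign changed with a library left out for Eef2 (−0.0079 to 0.040), Tpt1 (−0.012 to 0.025) and Naca (−0.027 to 0.0075), none of them called, and the cause was not tested. Without Gm26917 the share of reads was 1.38, 1.28 and 1.28% in control, siRNA 1 and siRNA 2.

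Whether replicate numbers pair the libraries was not tested. Deviations from group means correlated at a mean r of 0.0087 over 10 pairs of the same number and −0.0029 over 30 others. Of the 11 libraries, 5 were nearest to one of their own number. With the replicate block the calls were 3 and 4, and 5 for the mean of both, with medians of −0.12, −0.13 and −0.14. Eef2 (edgeR adjusted p = 0.0698) and Rack1 (edgeR adjusted p = 0.0852) were no longer called with siRNA 2. Summing copies, restricted after seeing the data to genes sharing at least 1% of words, gave 3 and 6, and the unrestricted sum was not run, since it joins unrelated genes to Rack1 and Pabpc1 through repeats.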
